A study of Mus musculus with 9 samples.

Results

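The genes described here encode subunits of the GABA-A receptor, and they were taken as all non-control probes whose RefSeq accession belongs to Gabra2, Gabra3, Gabra4, Gabra5, Gabrb1, Gabrb2 or Gabrd. This gave 8 probes of 55681 non-control probes and 7 genes of 30837 genes tested. Probes were taken by gene identity and not by their values, but the 7 genes were chosen with earlier results of these data known. Every one of the 8 probes read well above background throughout the 9 arrays, so no member was lost to the filter on dim probes.

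RNA of homogenised brain from adult male C57BL/6 mice was labelled with Cy3 and hybridised to 9 Agilent arrays, 3 per group, with 200 ng of RNA for each array. In the VEGF group, 90 min of middle cerebral artery occlusion was followed by reperfusion and, 3 h later, by an injection into the right lateral ventricle of 1 µl of the human growth factor VEGF-A165 (recombinant, 10 µg/ml). In the MCAO group, the occlusion was the same and the injection, of equal volume, site and time, held phosphate-buffered saline alone. The sham group had sham surgery, and no injection is stated for it. Brains were collected 24 h after reperfusion, 21 h after the injection, from mice aged 50 to 53 days. Each of the 3 experiments used different mice, which makes every array of a group a different animal. No transgene or mutant allele is stated for any group. Which part or side of the brain was taken is not stated.

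GABA, the main inhibitory transmitter of the adult brain, opens GABA-A receptors, which are chloride channels assembled from several subunits. An alpha and a beta subunit together form the GABA binding site, and a gamma or delta subunit usually completes the channel. Receptors with a gamma subunit sit largely at synapses, whereas receptors with the delta subunit sit outside them and carry a steady, tonic current. The alpha subunit sets much of the response to benzodiazepines. The subunits are made mainly by neurons, and the middle cerebral artery supplies striatum and much of the cortex.

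Promoter windows are shown for the member that passed the test (Gabra2), the member with the lowest values on most arrays after occlusion (Gabra5) and the pair of members that start close together (Gabra4 and Gabrb1). Each window runs 5′ to 3′ on the gene's strand from 250 bases before to 50 bases after the RefSeq start (build GRCm38.p6). Lower case is plain sequence, and capitals mark matches to a motif searched on both strands.
Gabra2, chr5:71095800-71096099, minus strand: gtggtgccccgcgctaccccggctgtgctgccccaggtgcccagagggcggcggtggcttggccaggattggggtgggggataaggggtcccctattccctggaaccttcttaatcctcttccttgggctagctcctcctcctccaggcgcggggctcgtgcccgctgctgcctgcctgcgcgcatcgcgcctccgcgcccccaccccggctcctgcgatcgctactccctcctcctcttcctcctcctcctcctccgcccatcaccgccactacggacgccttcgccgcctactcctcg
Gabra5, chr7:57510010-57510309, minus strand: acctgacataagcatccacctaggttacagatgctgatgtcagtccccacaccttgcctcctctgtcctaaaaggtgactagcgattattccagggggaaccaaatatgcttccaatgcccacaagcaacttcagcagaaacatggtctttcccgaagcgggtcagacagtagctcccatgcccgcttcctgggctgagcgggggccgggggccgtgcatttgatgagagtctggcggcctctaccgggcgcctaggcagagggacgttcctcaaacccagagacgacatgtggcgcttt
Gabra4, chr5:71658259-71658558, minus strand: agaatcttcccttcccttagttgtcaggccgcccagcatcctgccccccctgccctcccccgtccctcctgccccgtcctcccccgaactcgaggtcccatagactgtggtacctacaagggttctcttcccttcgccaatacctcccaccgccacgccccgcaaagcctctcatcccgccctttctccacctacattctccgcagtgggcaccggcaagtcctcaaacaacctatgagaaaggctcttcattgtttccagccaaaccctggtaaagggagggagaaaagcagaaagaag
Gabrb1, chr5:71657671-71657970, plus strand: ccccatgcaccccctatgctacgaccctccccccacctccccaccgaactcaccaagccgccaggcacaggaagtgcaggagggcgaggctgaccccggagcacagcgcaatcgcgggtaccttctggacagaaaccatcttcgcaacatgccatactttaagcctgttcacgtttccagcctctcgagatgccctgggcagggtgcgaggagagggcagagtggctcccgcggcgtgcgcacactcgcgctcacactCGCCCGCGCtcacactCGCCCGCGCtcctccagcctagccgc
The motifs searched were the cAMP response element TGACGTCA, its shorter form TGACG (which TGACGTCA contains), the early growth response motif GCGNGGGCG and the TATA motif TATAAA. Of 32851 mouse windows of the same length, 1.79% held TGACGTCA, 20.8% held TGACG, 5.55% held GCGNGGGCG and 13.6% held TATAAA. The windows of Gabra2, Gabra5 and Gabra4 held none of the 4 motifs, and the Gabrb1 window shown held 2 matches to GCGNGGGCG. Another Gabrb1 window (chr5:71699682-71699981, not shown) held none of the 4 motifs and had a GC content of 50.3%. Of the members not shown, the first Gabrb2 window held 1 match each to TGACG, GCGNGGGCG and TATAAA. The Gabra3 windows overlap and share 1 match to TATAAA at the same site. GC content of the windows shown was 70.0% for Gabra2, 56.7% for Gabra5, 58.7% for Gabra4 and 66.0% for Gabrb1, against a median of 52.7% over all windows. The Gabra4 and Gabrb1 starts lie 387 bases apart on opposite strands of chromosome 5, and the genes are read toward each other, so their annotated spans overlap between the starts. Gabrd was the 1 member of 7 without a window.

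Signals are given as log2 processed intensity minus the array's 75th percentile, so 0 is the 75th percentile of that array, and as a percentage of the sham mean, which is the mean of the 3 sham log2 values. The 75th percentile of the processed intensity was 723, 1550 and 1320 on VEGF arrays 1 to 3, 797, 1770 and 1710 on MCAO arrays 1 to 3 and 1250, 1340 and 1340 on sham arrays 1 to 3, and 73.0% to 81.8% of spots were well above background. VEGF array 1 and MCAO array 1 stood apart from the other arrays of their groups, so results are given with and without both. All sham arrays were on one slide and all VEGF and MCAO arrays on another, so slide and occlusion cannot be told apart, while VEGF and MCAO shared a slide. The scan of MCAO array 1 took place on a day of its own, and its processed signal lacked the spatial detrending. Arrays have no read depth, and 3 arrays per group limit the precision of every value.

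**Figure D1:**
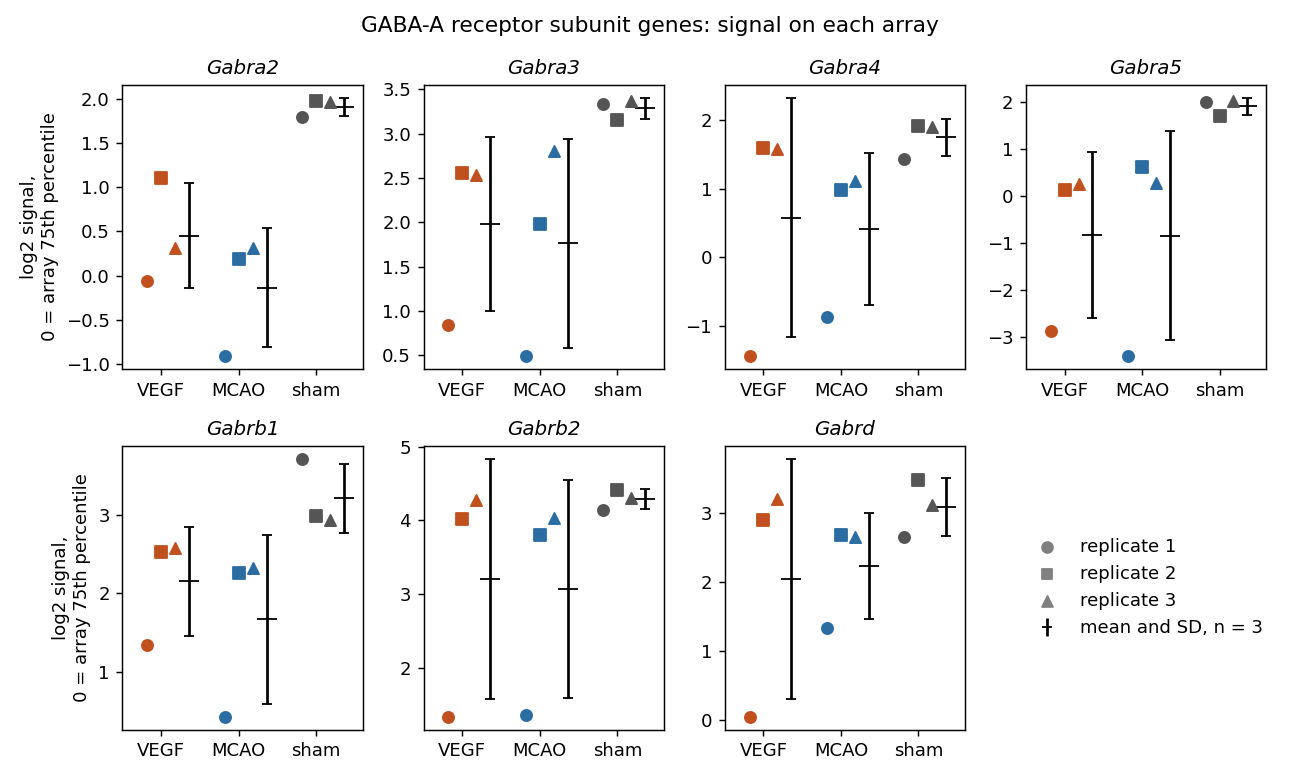
Each panel plots 1 subunit gene, with the log2 processed signal relative to the array's 75th percentile on the y axis and the VEGF, MCAO and sham groups on the x axis; symbols mark replicates and the bar to the right gives mean and SD (n = 3). Replicate 1 of VEGF and of MCAO is the lowest array of its group for every gene. For Gabra2, Gabra3, Gabra5 and Gabrb1 all 6 arrays after occlusion lie below the 3 sham arrays. Taken by itself, the VEGF group lay wholly below sham for 23.9% of all genes and the MCAO group for 20.7%.

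The comparison of MCAO with sham asks how occlusion followed by vehicle altered the transcripts. All 7 members had a mean below sham (53.2% of all genes did), with log2 differences from -2.75 to -0.85, and Gabra2 was the 1 member that passed the test (limma on all 9 arrays, Benjamini-Hochberg adjusted p under 0.05). For 6 of 7 members every MCAO array lay below every sham array, a pattern that 20.7% of all genes showed in this direction. Of all genes tested, 2.81% passed in either direction and 0.535% passed with a lower value in MCAO. The median log2 difference was -1.52 over the 7 members and -0.04 over all genes. At an unadjusted p under 0.05, 4 of 7 members passed, against 21.4% of all genes. In these bulk samples, fewer cells that make a transcript and less transcript per cell cannot be told apart.

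Among the alpha subunits, Gabra2 encodes a subunit found at synapses and on the axon initial segment, and it had the lowest p. Its deposited intensity was 423, 2010 and 2130 on MCAO arrays 1 to 3, against 4340, 5280 and 5250 on the sham arrays. Scaled, this was 14.1%, 30.1% and 33.0% of the sham mean on the MCAO arrays, against 92.1%, 104.5% and 103.9% on the sham arrays. The lowest sham array was thus well above the highest MCAO array. The means were -0.14 ± 0.68 in MCAO and 1.91 ± 0.10 in sham (SD, n = 3 each), a log2 difference of -2.05 ± 0.39 (SE; adjusted p = 0.0315). The call was lost without scaling between arrays and when any 1 sham array, MCAO array 2 or MCAO array 3 was left out, with adjusted p from 0.0582 to 0.198.

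Gabra5 encodes the alpha subunit known for tonic inhibition of hippocampal pyramidal cells. Its deposited intensity was 75.3, 2710 and 2060 on the MCAO arrays, against 4990, 4370 and 5470 on the sham arrays. The scaled signal was 2.51% of the sham mean on MCAO array 1, and 40.7% and 32.0% on MCAO arrays 2 and 3, while the sham arrays stood at 86.7% to 108.6%. MCAO array 1 was 39.8-fold below the sham mean, which made the group wide, at -0.84 ± 2.23 in MCAO against 1.91 ± 0.18 in sham (SD, n = 3 each). The log2 difference was the lowest of the 7 members, at -2.75 ± 1.14 (adjusted p = 0.215). It did not pass although the groups did not overlap.

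Gabra3 encodes an alpha subunit prominent in the reticular nucleus of the thalamus. It stood at 14.4%, 40.6% and 71.9% of the sham mean on the MCAO arrays, against 103.3%, 91.0% and 106.3% on the sham arrays. The MCAO arrays were spread over the whole span below sham, and the log2 difference was -1.52 ± 0.63 (adjusted p = 0.213). Gabra4 encodes the alpha subunit that pairs with delta in the forebrain, and it stood at 16.3%, 58.9% and 64.1% of the sham mean on the MCAO arrays, against 80.5%, 112.4% and 110.4% on the sham arrays. Its log2 difference was -1.34 ± 0.84 (adjusted p = 0.372). Both genes had every MCAO array below every sham array.

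Of the beta subunits, which carry the binding face for GABA opposite alpha, Gabrb1 stood at 14.4%, 51.7% and 53.9% of the sham mean on the MCAO arrays, against 142.0%, 85.1% and 82.7% on the sham arrays. Sham array 1 was the high one, and the groups did not overlap (log2 difference -1.55 ± 0.56, adjusted p = 0.172). Gabrb2, the beta subunit of the commonest synaptic receptors, stood at 13.1%, 71.7% and 83.8% of the sham mean on the MCAO arrays, against 90.4%, 108.9% and 101.6% on the sham arrays. MCAO arrays 2 and 3 lay just below the lowest sham array (log2 difference -1.22 ± 0.89, adjusted p = 0.439). Gabrd, the delta subunit of extrasynaptic receptors, stood at 29.9%, 76.0% and 74.5% on the MCAO arrays, against 74.1%, 132.1% and 102.2% on the sham arrays. It was the 1 member whose MCAO and sham arrays overlapped, and its difference was the nearest to 0 of the 7 (-0.85 ± 0.79, adjusted p = 0.541).

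The comparison of VEGF with sham takes in both occlusion and the growth factor. All 7 members again had a mean below sham (57.6% of all genes did), with log2 differences from -2.74 to -1.03, and 0 of 7 passed the test, against 2.43% of all genes in either direction and 0.357% lower. At an unadjusted p under 0.05, 2 of 7 members passed (Gabra2 and Gabra5), against 23.5% of all genes. Gabra2, Gabra3, Gabra5 and Gabrb1 had every VEGF array below every sham array, which 23.9% of all genes showed. The median log2 difference was -1.17 over the members and -0.12 over all genes. MCAO and VEGF were set against the same 3 sham arrays, so these results are not independent of the ones above.

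Gabra2 stood at 25.3%, 57.2% and 33.0% of the sham mean on VEGF arrays 1 to 3. Its mean was 0.45 ± 0.60 in VEGF and 1.91 ± 0.10 in sham (SD, n = 3 each), and the log2 difference was -1.46 ± 0.39 (adjusted p = 0.0937). It passed when MCAO array 1 was left out of the fit (adjusted p = 0.0295). Gabra5 had deposited intensities of 98.8, 1700 and 1570 on the VEGF arrays, which was 3.64%, 29.2% and 31.6% of the sham mean. The log2 difference was -2.74 ± 1.14 (adjusted p = 0.199), close to that in MCAO. Both genes were far below sham on all 3 VEGF arrays, by the most on array 1.

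The other members had 1 VEGF array far below the rest. Gabra3 stood at 18.4%, 60.5% and 59.2% of the sham mean and Gabrb1 at 27.4%, 62.0% and 64.6%, all below the lowest sham array. Gabra4 stood at 10.997%, 89.5% and 88.9%, Gabrb2 at 12.9%, 83.2% and 99.2% and Gabrd at 12.2%, 88.3% and 108.2%, so that at least 1 VEGF array of each lay within the sham range. Their log2 differences ran from -1.31 (Gabra3) to -1.03 (Gabrd), with adjusted p from 0.242 to 0.455.

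**Figure D2:**
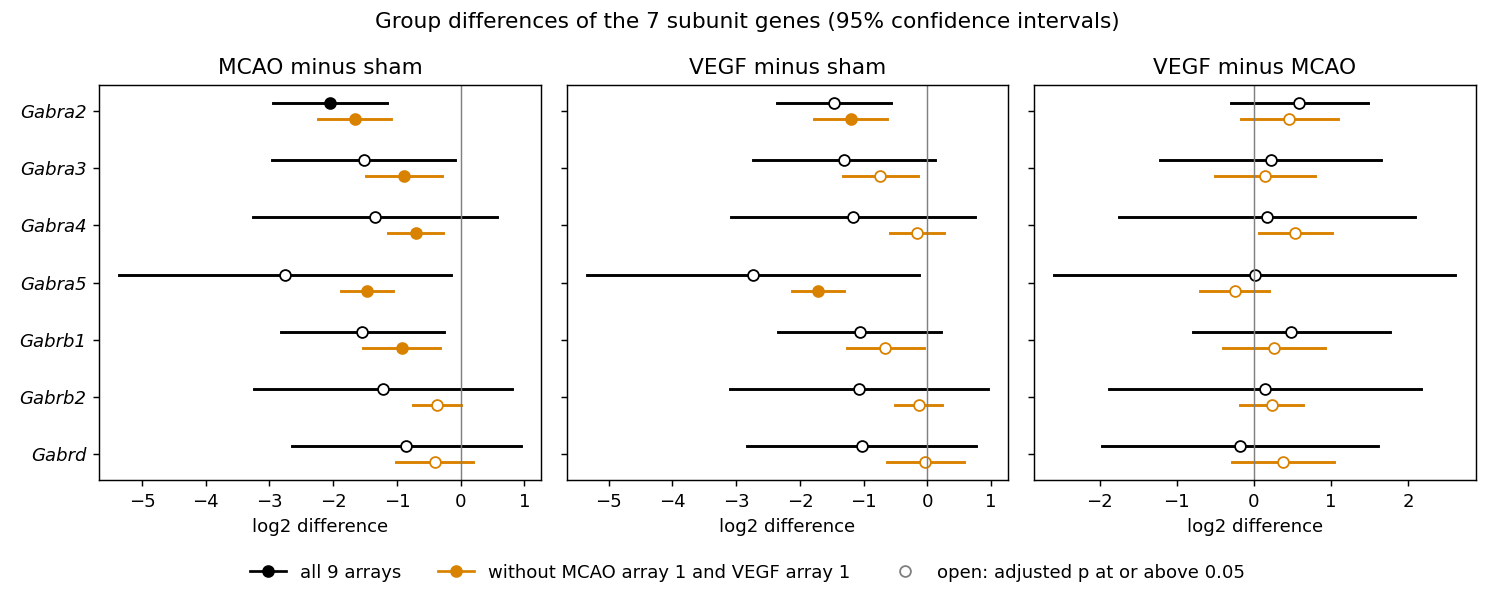
Log2 differences of the 7 subunit genes with 95% confidence intervals, for MCAO minus sham, VEGF minus sham and VEGF minus MCAO; black points are from all 9 arrays, orange points leave out VEGF array 1 and MCAO array 1, and filled points have an adjusted p under 0.05. With all arrays only Gabra2 in MCAO minus sham is filled, and without the pair 5 points are filled for MCAO minus sham, 2 for VEGF minus sham and none for VEGF minus MCAO.

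VEGF against MCAO is the comparison of growth factor with vehicle after the same occlusion. None of the 7 members passed the limma test (0 of 7, and 0 at an unadjusted p under 0.05), the groups overlapped for every member, where 5.8% of all genes had groups that did not overlap, and across all genes 2 passed (0.00649%), with 2.78% at an unadjusted p under 0.05. The differences were 0.59 for Gabra2, 0.48 for Gabrb1, 0.22 for Gabra3, 0.17 for Gabra4, 0.14 for Gabrb2, 0.01 for Gabra5 and -0.18 for Gabrd on the log2 scale, each with an adjusted p of 0.9999. The intervals were wide. The 95% interval ran from -0.30 to 1.48 for Gabra2 and from -2.59 to 2.61 for Gabra5, so that differences of either sign remain possible. For every member the order of the means was sham highest, and VEGF and MCAO, the neighbours in that order, did not differ beyond their spread.

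The 2 arrays that stood apart carried the lowest values of their groups for all 7 members. The median of the members relative to the sham mean was -2.95 on VEGF array 1 and -2.80 on MCAO array 1, against -0.69 and -0.63 on VEGF arrays 2 and 3 and -0.95 and -0.64 on MCAO arrays 2 and 3. All 7 members lay below the sham mean on both arrays that stood apart. Of 30837 genes, 16304 did so on VEGF array 1 and 12970 on MCAO array 1. On the other arrays after occlusion 6 or 7 members did, with 17497 to 18000 of all genes. Gabra5 was the lowest member on 5 of the 6 arrays after occlusion, and Gabra2 on the other one, MCAO array 2.

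VEGF array 1 and MCAO array 1 held the lowest values of their groups, so leaving them out had to raise the group means of all 7 members. The members then lay nearer to sham in both comparisons with it, and the spread was narrower. In MCAO against sham, 5 of 7 members then passed the limma test, all lower, where 12.4% of all genes passed lower and 22% in either direction. These were Gabra5 (-1.47 ± 0.17, adjusted p = 0.00389), Gabra2 (-1.66 ± 0.24, adjusted p = 0.00746), Gabra4 (-0.70 ± 0.18, adjusted p = 0.0371), Gabrb1 (-0.92 ± 0.25, adjusted p = 0.0447) and Gabra3 (-0.89 ± 0.24, adjusted p = 0.0466). In VEGF against sham, Gabra5 (-1.72, adjusted p = 0.00321) and Gabra2 (-1.20, adjusted p = 0.0221) passed, where 10.6% of all genes passed lower and 19% in either direction. Gabrb2 and Gabrd passed in neither comparison. In VEGF against MCAO 0 members passed, with 0.0319% of all genes called. These fits rest on 2 arrays in each occluded group and 3 in sham. The arrays left out were singled out from these same data, so the calls are a description and no independent test.

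Gabra3 was the 1 member with more than 1 probe. The brighter probe, A_55_P1963463, stood for the gene above, and the dimmer probe, A_55_P2112772, read 27.1, 97.6 and 79.2 on the VEGF arrays and 27.1, 87.9 and 109 on the MCAO arrays, against 147, 108 and 120 on the sham arrays. In the fit of every probe by itself the dimmer probe had a log2 difference of -0.86 ± 0.31 in VEGF against sham (adjusted p = 0.164) and -0.99 ± 0.31 in MCAO against sham (adjusted p = 0.136). Both probes lay below sham in both comparisons and neither passed, and the brighter probe gave the larger difference.

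**Figure D3:**
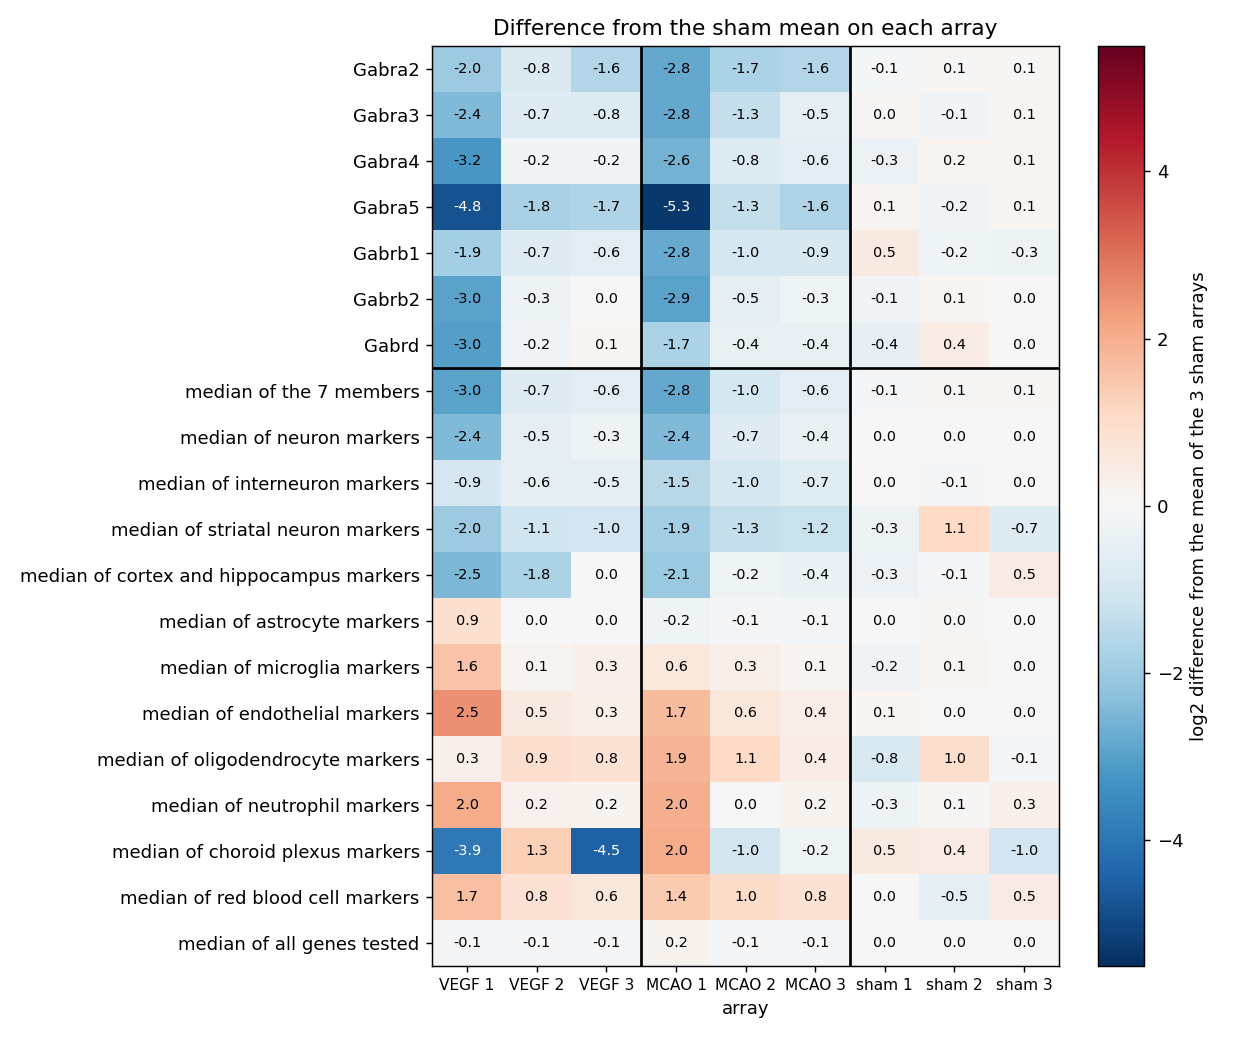
Log2 difference from the mean of the 3 sham arrays, by array (columns: VEGF, MCAO, sham) for each subunit gene (upper rows) and for the median of each marker list and of all genes tested (lower rows); blue is lower and red higher than the sham mean. The members and the neuron markers are lowest on VEGF array 1 and MCAO array 1, where the endothelial markers are highest.

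Markers of cell types moved along the same arrays. All 16 neuron markers were well above background on all 9 arrays, and their summed level, in multiples of each array's 75th percentile, ran from 197 to 699 in VEGF, from 200 to 629 in MCAO and from 799 to 840 in sham. The lowest VEGF and MCAO sums were those of the arrays that stood apart, at 197 and 200, while the other 4 arrays after occlusion ran from 528 to 699. All 16 neuron markers had a difference below 0 in VEGF against sham and in MCAO against sham, as 57.6% and 53.2% of all genes did. The medians were -1.005 and -1.172, and 0 passed the limma test in either. At an unadjusted p under 0.05, 2 passed in VEGF against sham and 5 in MCAO against sham, where 23.5% and 21.4% of all genes did. Without the pair, 3 of 16 passed lower in VEGF against sham and 6 of 16 in MCAO against sham. Over all genes these shares were 10.6% and 12.4%. The summed level of the members ran from 9.36 to 45.7 in VEGF, from 9.02 to 39.3 in MCAO and from 57.3 to 60.2 in sham. The part of neuron content in the members' values was not tested.

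The endothelial list was highest on the same pair of arrays. All 8 endothelial markers were measured on every array, and their summed level was 237 on VEGF array 1 and 169 on MCAO array 1, from 56.2 to 75.3 on the other 4 arrays after occlusion and from 35.5 to 37.4 in sham. Slco1a4, a transporter gene of brain endothelium, went the other way and fell in VEGF (-2.23, adjusted p = 0.00388) and in MCAO (-1.59, adjusted p = 0.015). Neutrophil markers summed to 101 to 219 in VEGF, 107.4 to 243 in MCAO and 82.4 to 105 in sham, and 3 of 7 rose in both comparisons with sham, among them S100a8 (log2 difference 6.02 in VEGF, adjusted p = 0.0185, and 6.19 in MCAO, adjusted p = 0.0156). Cxcr2, another of them, was not well above background in sham. Gfap, the astrocyte filament gene that marks reactive astrocytes, rose in VEGF (2.06, adjusted p = 0.0366) and had 1.84 in MCAO (adjusted p = 0.0508), and VEGF and MCAO differed by 0.22 (adjusted p = 0.9999). Without the pair it rose in both, by 2.24 in VEGF (adjusted p = 0.00312) and 2.29 in MCAO (adjusted p = 0.00231). The astrocyte list as a whole did not follow Gfap. With all arrays 3 of 8 astrocyte markers lay below 0 in VEGF and 4 of 8 in MCAO, with medians of 0.23 and -0.05. Without the pair 5 of 8 lay below 0 in VEGF and 6 of 8 in MCAO. Among these, Gja1 fell in VEGF (-1.05, adjusted p = 0.0095) and in MCAO (-0.91, adjusted p = 0.0113). The microglial receptor gene P2ry12 fell in VEGF (-2.31, adjusted p = 0.00122) and in MCAO (-2.67, adjusted p = 0.00061), the 1 microglial marker of 8 to pass. Most of that list lay the other way, with 3 of 8 below 0 in VEGF and 2 of 8 in MCAO and medians of 0.68 and 0.30.

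Markers of brain regions differed among arrays of one group as well. The striatal list, with all 10 markers well above background on every array, summed to 17.8 to 61.7 in VEGF, 23.4 to 51.0 in MCAO and 49.5 to 200.3 in sham. The cortex and hippocampus list, again 10 of 10, summed to 9.86 to 58.6 in VEGF, 8.91 to 52.9 in MCAO and 59.7 to 78.0 in sham. The choroid plexus list, 6 of 6, ran from 0.773 to 160.5 in VEGF, from 38.6 to 295 in MCAO and from 31.2 to 108.4 in sham. Among the glial and blood lists, oligodendrocyte markers summed to 250.4 to 339 in VEGF, 259.7 to 706 in MCAO and 93.7 to 365 in sham. Astrocyte markers summed to 324 to 568 in VEGF, 319 to 341 in MCAO and 281 to 311 in sham, and microglial markers to 204 to 411 in VEGF, 233 to 261 in MCAO and 157 to 175 in sham. Red blood cell markers summed to 97.2 to 179.6 in VEGF, 120.5 to 161 in MCAO and 43.5 to 89.2 in sham. The part of these lists in the members' values was not tested.

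The rest of the GABA system was described with lists that also hold genes outside the receptor. With all 9 arrays, 0 genes of these lists passed the limma test in MCAO against sham or in VEGF against sham. The unadjusted p was under 0.05 in MCAO against sham for 2 of 11 other GABA-A subunits, 3 of 9 genes of GABA synthesis and transport, 2 of 5 GABA-B receptor genes, 4 of 16 genes of clustering and trafficking and 1 of 7 chloride transporters and kinases, where 21.4% of all genes had such a p. In VEGF against sham it was under 0.05 for 0, 1, 1, 3 and 0 genes of the same lists, against 23.5% of all genes. The median log2 differences in MCAO against sham were -0.24 for the other GABA-A subunits, -0.77 for GABA synthesis and transport, -1.01 for GABA-B receptors, -0.59 for clustering and trafficking and 0.41 for chloride transporters and kinases. In VEGF against sham they were -0.55, -0.21, -0.82, -0.57 and 0.20 in the same order of lists. The genes named below from the fit without the pair were chosen after their values were seen.

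Of the other subunits, Gabrp had the highest difference with all arrays, 0.67 in VEGF against sham and 0.54 in MCAO against sham. Gabrq was not well above background on any MCAO array, and Gabra6, typical of cerebellar granule cells, was not well above background on all 3 arrays of any group.

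Of the genes that make and carry GABA, Slc6a13, a GABA transporter of the meninges and vessels, had the lowest difference in MCAO against sham (-2.06 ± 0.63, adjusted p = 0.123), and Aldh5a1, which completes GABA breakdown, had the highest (0.59 ± 0.20, adjusted p = 0.147). Without the pair, Slc6a13 fell in MCAO (-1.32, adjusted p = 0.0418). All 5 GABA-B receptor genes lay below sham in both comparisons. Without the pair Kctd12, an auxiliary subunit, passed in VEGF (-0.67, adjusted p = 0.0438), and Gabbr1, which carries the GABA-B ligand site, passed in MCAO (-0.69, adjusted p = 0.0451).

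In the clustering and trafficking list, Hap1, which is involved in the return of GABA-A receptors to the membrane, had the lowest difference in MCAO against sham (-2.33 ± 0.55, adjusted p = 0.0658) and Ubqln1, which stabilises subunits, the highest (0.76 ± 0.24, adjusted p = 0.135). Without the pair 5 of 16 fell and 2 rose in MCAO, against 12.4% of all genes that passed lower and 9.61% higher. Among those that fell were Nlgn2, the adhesion protein of inhibitory synapses (-0.70, adjusted p = 0.0188), and Lhfpl4, which holds receptors at those synapses (-0.61, adjusted p = 0.0263), and those that rose were Gabarapl2 (0.81, adjusted p = 0.011) and Ubqln1 (0.51, adjusted p = 0.0343). In VEGF 1 of 16 fell and 1 rose without the pair, against 10.6% of all genes that passed lower and 8.44% higher. Of the chloride list, Slc12a5, the chloride exporter KCC2 of neurons, had the lowest difference in MCAO against sham (-1.47 ± 0.77, adjusted p = 0.304) and Oxsr1, a kinase that acts on chloride transporters, the highest (1.36 ± 0.57, adjusted p = 0.216). Without the pair, Slc12a5 fell (-0.72, adjusted p = 0.0276) and Oxsr1 rose (0.78, adjusted p = 0.0301) in MCAO, and Oxsr1 rose in VEGF (0.76, adjusted p = 0.0367).

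**Figure D4:**
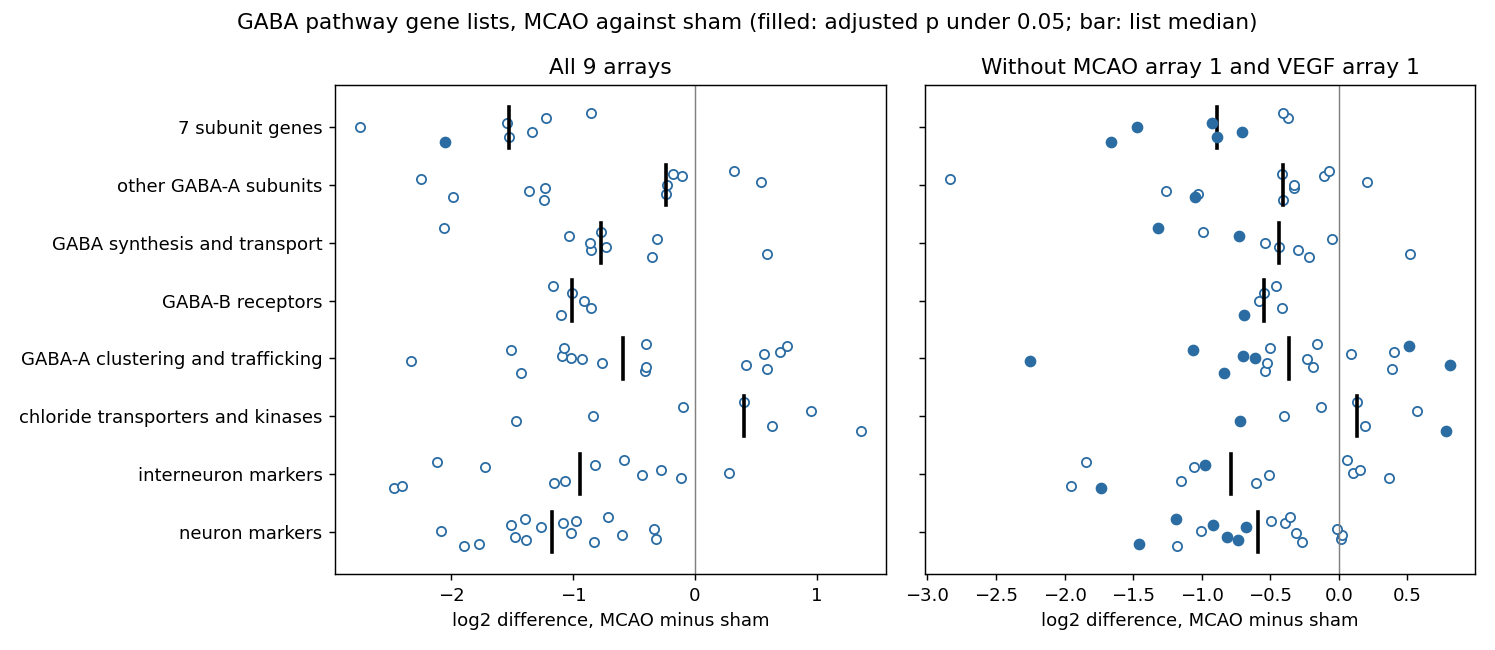
Log2 difference of MCAO minus sham for each measured gene (points) of the 7 subunit genes, 5 GABA pathway lists, interneuron markers and neuron markers, with all 9 arrays (left) and without VEGF array 1 and MCAO array 1 (right); filled points have an adjusted p under 0.05 and bars are list medians. With all arrays only Gabra2 is filled, and without the pair 5 of the 7 subunit genes are filled.

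Interneuron markers were all measured (12 of 12) and well above background on all 9 arrays, with summed levels from 165 to 267 in VEGF, from 134 to 239 in MCAO and from 322 to 336 in sham. Whether these genes mark interneurons alone in these samples was not tested. With all arrays 0 of 12 passed the limma test in either comparison with sham. At an unadjusted p under 0.05, 3 passed in VEGF and 6 in MCAO, where 23.5% and 21.4% of all genes did. The lowest and highest differences in MCAO against sham were those of Calb1 (-2.47 ± 0.65, adjusted p = 0.084) and Npy (0.28 ± 0.32, adjusted p = 0.616). Without the pair, Calb1 fell in VEGF (-1.13, adjusted p = 0.0221) and in MCAO (-1.73, adjusted p = 0.00547), and Sst fell in MCAO (-0.98, adjusted p = 0.0255).

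The members followed one another to different degrees. The root mean square distance of a member to the members' median profile over the 9 arrays, on log2 values minus the sham mean, was 0.23 for Gabra3, 0.27 for Gabra4 and 0.33 for Gabrb2, 0.45 for Gabrb1, 0.53 for Gabrd, 0.62 for Gabra2 and 1.21 for Gabra5. Gabra5 was thus the member farthest from the common profile. Among 17582 other genes with a symbol, the 5 nearest to that profile by the same distance were Slc12a5 (0.11), Ajm1 (0.12), Med14 (0.12), B4galt6 (0.14) and Dcaf12l1 (0.14). On VEGF array 1 and MCAO array 1, Slc12a5 stood at -2.93 and -2.96 relative to its sham mean on the log2 scale. The arrays fall into separate clusters, so this distance describes the profile and is no test.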

How the data were processed

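Each array file holds the scanner's output for 1 array. Per the file headers, Agilent Feature Extraction 10.7.1.1 made the processed intensity from the background-subtracted signal, divided by a spatial detrending factor that the authors deposited as a ratio for each spot. On MCAO array 1 the deposited intensity equals the signal before that division for 99.979% of spots (within 1%). A second, processed table from the authors gives no scale. Column by column it correlated at 0.998 to 1.00 with log2 of the processed intensity, and all medians were 6.97, so it was treated as deposited log2 values already aligned between arrays; the method is not given in the sources used here.

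Spots of a probe were averaged, log2 was taken, and the 75th percentile over non-control probes was subtracted per array. A probe was kept where, in at least 1 group, all 3 arrays read well above background (43921 of 55681), and the probe with the highest mean signal stood for a gene. Accessions were matched to RefSeq symbols for 26582 probes (17589 genes tested). Groups were compared with limma 3.58.1 (lmFit and eBayes, R 4.3.3) on all 9 arrays without covariates, with two-sided tests adjusted by Benjamini-Hochberg over 30837 genes at 0.05. The procedure was also run on simulated data with independent noise for each gene and array. Such data lack arrays that deviate together, as VEGF array 1 and MCAO array 1 did, so they do not test the calls under that pattern.

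The members and lists were chosen with earlier results of these data known. All members were named, and of other lists the genes that passed, or else the lowest and highest. Deviations of same-numbered arrays from their group means correlated at 0.587, 0.224 and 0.558 between VEGF and MCAO. The values were -0.032, 0.135 and 0.112 between VEGF and sham, and 0.027, -0.107 and 0.151 between MCAO and sham. Between VEGF and MCAO, arrays of unlike number correlated at -0.563 to 0.392. The labels do not say what a number shares, and the main fit paired no arrays. A replicate block over all 3 groups was fitted as an alternative. Alternatives covered scaling, background correction, source of values, filter, choice of probe, covariates, weights and arrays left out. Protein sequences were not used here. Some genes of the GABA lists are not reported here.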

Additional observations from a re-analysis of the deposited data

How the results depend on the processing

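Against sham no member changed direction under any alternative, and all 7 differences stayed below 0. The count of members that passed in MCAO against sham was 1, and it was 0 without scaling between arrays, 7 with array quality weights and 5 without VEGF array 1 and MCAO array 1; with 1 array left out at a time it ran from 0 to 1, and the count was 0 without any 1 sham array, MCAO array 2 or MCAO array 3. In VEGF against sham the count was 0, with 3 under array quality weights, 2 without that pair and 0 to 1 with 1 array left out (1 without MCAO array 1). In VEGF against MCAO it was 0, with 2 under array quality weights. The weights had not converged, and MCAO array 2 took a weight of 57.6, so the counts of comparisons with MCAO rest largely on it. The VEGF minus sham difference does not use that array, and its largest weights were those of VEGF array 2 (4.35) and sham arrays 2 and 3 (2.11 and 1.61). Under the weights 59.9% of all genes passed in MCAO against sham, 42.8% in VEGF against sham and 27.2% in VEGF against MCAO, so the members' counts there show nothing particular to them. Other alternatives left these counts as they were. With the replicate block, 1, 0 and 0 members passed in MCAO against sham, VEGF against sham and VEGF against MCAO, so the block changed no call. Gabra2 in VEGF against sham had an adjusted p of 0.0526 with the block.

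The small differences of VEGF against MCAO changed sign under some settings. Without scaling they were -0.018 for Gabra3, -0.066 for Gabra4, -0.224 for Gabra5 and -0.090 for Gabrb2. Gabra5 was at -0.048 with normexp, -0.030 with the signal recomputed with the detrending factor, -0.52 with array weights and -0.25 without the pair of arrays. Gabrd was at 0.15 with age as a covariate, 0.19 with array weights and 0.38 without the pair. With 1 array left out at a time the differences ran from -0.42 to 0.78 for Gabra3, -0.47 to 1.18 for Gabra4, -1.27 to 1.03 for Gabra5, -0.14 to 0.89 for Gabrb1, -0.71 to 1.08 for Gabrb2 and -0.75 to 0.82 for Gabrd. The cause was not tested.

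Across all genes, 868 passed in MCAO against sham (81.0% of them higher), 748 in VEGF against sham (85.3% higher) and 2 in VEGF against MCAO. In MCAO against sham the count was 1373 without scaling (96.9% higher), 558 with normexp, 1788 with only the 2 groups, 1594 with age, 18457 with weights, 6912 without the pair (43.6% higher) and 191 (without sham array 1) to 2534 (without VEGF array 1) with 1 array left out. In VEGF against sham it was 440 with normexp, 13189 with weights, 5969 without the pair (44.3% higher) and 157 (without sham array 1) to 3196 (without MCAO array 1) with 1 array left out. In VEGF against MCAO it was 4 with quantile normalization and without scaling, 1 with only the 2 groups, 8391 with weights, 10 without the pair, 1 to 5 with 1 array left out and 0 with normexp, with the recomputed signal and with the stricter filter. Without scaling, the median of all genes in VEGF against sham was -0.32 in place of -0.12 (0.02 with normexp), and that of the members -1.37. In VEGF against MCAO without scaling these medians were -0.26 and -0.07, so the members lay above the median of all genes there. Slide and scan day could not be fitted as a block, since one slide held all sham arrays and the second scan day held 1 array. Signal over background did not limit the members, as all 8 probes were well above it on all 9 arrays.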
